A study of Mus musculus with 15 samples.

Results

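The windows described here are the 1-kb stretches of autosomal DNA whose methylation was proportionally lowest in newborn mouse kidney after deletion of Dnmt1. A window counted as measured when 3 or more cytosine positions held 10 or more calls in all 6 samples of postnatal day 0 (P0), a call being the reading of one cytosine in a sequencing read as methylated or not. The methylation level of a window is the percent of its calls that were methylated. Of 50993 measured windows, 20636 had a mean of at least 80% over the 3 controls. A window was kept when the mean of the 3 knockout (KO) samples was at most 0.60 of the control mean, and 1151 of those 20636 windows (5.58%) met this rule. They are called depleted windows below, and the remaining 19485 highly methylated windows serve as their background. Because the levels of KO and control chose the windows, those levels are given as a description and were not tested.

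The samples came from C57BL/6 mice. Controls carried floxed Dnmt1 alleles without Cre (Dnmt1 f/f, P0), and KO samples carried the same alleles together with Six2Cre (Six2Cre Dnmt1 f/f, P0), a Cre recombinase driven by Six2 that acts in nephron progenitors and their descendants. Methylation was read by reduced representation bisulfite sequencing (RRBS), an assay of restriction fragments rich in CpGs, in 3 controls, 3 KO samples and 3 wild-type adults of 6 weeks. For RNA there were a further 3 controls and 3 KO samples of P0. The source labels give Six2-positive kidney cells while the protocol names entire kidneys, and nothing in them says that samples of a group came from separate animals, so the spread and the p-values below measure only the variation between these samples.

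Dnmt1 is the maintenance DNA methyltransferase. With its partner Uhrf1 it copies methylation onto the new strand after replication, and in dividing cells without it methylation is diluted as the cells divide. Six2-positive progenitors give rise to podocytes and tubule epithelium, whereas stroma, endothelium and the ureteric tree come from other cells and keep Dnmt1 in this cross. In bulk samples of this kind, fewer cells of a type and less methylation or RNA per cell cannot be told apart.

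Depth, cell markers and the targeted gene bear on all results. The RRBS samples held 18424875 to 88765177 calls, with the fewest in KO3, whose median was 4 calls per position. The RNA samples held 26773937 to 34102567 gene counts. Six2 itself stood at 41.3 to 107 CPM (counts scaled to library size) over the 6 RNA samples. Its 8-gene list of nephron progenitor markers summed to 322 to 451 CPM. The 7 markers listed for stroma, a tissue outside the Six2 lineage, summed to 3135 to 3780 CPM with none at 0 in all samples. Col1a1 and Col3a1 made up most of the stroma sum, and such sums do not give the share of a cell type. Controls had 5908, 4826 and 6921 counts for Dnmt1, and KO samples 3526, 3378 and 2467, a log2 fold change of -0.74 (SE 0.12, edgeR quasi-likelihood adjusted p 0.00577). No depleted window lay within 1000 bases of Dnmt1.

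Of 6 promoters with at least 2 measured CpGs of a depleted window upstream of a RefSeq start site, 4 are shown, picked after their values were seen, because the loss can be followed there CpG by CpG beside a gene. Each line gives the 250 bases before the start site, 5′ to 3′ on the gene's strand, from RefSeq on build GRCm38.p6. Capitals mark the CpGs with 10 or more calls in all 6 P0 samples. They are chr11:6230246-6230495 (minus strand) for Npc1l1, an intestinal and hepatic cholesterol transporter, chr6:113934682-113934931 (minus strand) for Atp2b2, a plasma membrane calcium pump, chr8:88024437-88024686 (plus strand) for Gm39217 and chr11:94351956-94352205 (plus strand) for Gm51871.
Npc1l1: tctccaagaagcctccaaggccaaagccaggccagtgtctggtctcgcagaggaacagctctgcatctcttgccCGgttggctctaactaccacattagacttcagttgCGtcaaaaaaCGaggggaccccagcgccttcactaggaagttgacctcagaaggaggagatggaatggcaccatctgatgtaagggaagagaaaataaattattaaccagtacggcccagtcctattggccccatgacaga
Atp2b2: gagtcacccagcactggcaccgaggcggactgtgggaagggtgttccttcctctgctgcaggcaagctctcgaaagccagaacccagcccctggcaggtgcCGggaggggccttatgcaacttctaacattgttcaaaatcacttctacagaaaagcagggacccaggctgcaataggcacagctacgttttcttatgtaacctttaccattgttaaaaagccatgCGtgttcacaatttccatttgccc
Gm39217: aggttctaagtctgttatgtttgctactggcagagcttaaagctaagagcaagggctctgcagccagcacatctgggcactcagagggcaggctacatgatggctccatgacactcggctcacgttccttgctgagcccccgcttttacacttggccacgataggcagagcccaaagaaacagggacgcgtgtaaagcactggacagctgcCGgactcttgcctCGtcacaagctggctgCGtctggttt
Gm51871: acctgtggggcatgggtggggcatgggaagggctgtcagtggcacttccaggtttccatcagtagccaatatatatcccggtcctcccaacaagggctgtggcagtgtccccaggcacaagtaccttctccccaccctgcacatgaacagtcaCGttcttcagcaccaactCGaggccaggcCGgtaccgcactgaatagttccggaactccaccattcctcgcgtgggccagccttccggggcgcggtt
Each of these sequences holds 1 to 4 copies of CCGG, the site cut by MspI, the enzyme commonly used for RRBS. That motif occurs in 47.8% of the 31396 autosomal RefSeq promoters over the same 250 bases, read on both strands because it is its own reverse complement. A match describes the letters only. Because these promoters were picked for CpGs measured by RRBS, a cut site in or near them follows from that choice. The comparison is therefore no measure of enrichment.

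The Npc1l1 promoter had 3 measured CpGs, all of those in its window. Its window stood at 84.3%, 95.8% and 96.2% in controls 1 to 3 and at 71.7%, 32.5% and 61.3% in KO1 to KO3, a ratio of 0.599. Within it, the CpG 131 bases upstream of the start site had 39.7% of its pooled KO calls methylated, the one at 141 bases 53.4% and the one at 176 bases 60.3%, against 87.8%, 96.4% and 96.3% of the pooled control calls. All 3 CpGs were therefore lower in the pooled KO calls, but the KO samples lay apart. At 131 bases KO1 to KO3 stood at 65%, 14.3% and 60% on 20, 28 and 10 calls. At 141 bases they stood at 65%, 42.9% and 60%, and at 176 bases at 85%, 40.7% and 63.6%. KO2 was the sample that carried the window under the threshold. Npc1l1 had 6, 11 and 10 counts in controls and 5, 1 and 6 in KO and did not pass the filter on low counts.

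At the Atp2b2 promoter the window stood at 88.1%, 91.9% and 86.4% in controls and at 60.8%, 59.6% and 33.3% in KO. Its 2 upstream CpGs had 59.2% (23 bases from the start site) and 56.7% (149 bases) of pooled KO calls methylated, against 91.4% and 84.1% in controls. KO3 held only 16 and 19 calls at them. Atp2b2 counts were 22, 15 and 22 in controls and 41, 24 and 34 in KO, which did not pass the test (log2 fold change 0.93, SE 0.34, edgeR adjusted p 0.115). The Gm39217 window stood at 81.5%, 83.3% and 87.0% in controls and at 40.8%, 48.4% and 40.7% in KO. Its 3 upstream CpGs lay between 44.8% and 47.7% of pooled KO calls, with 12 calls at each in KO3. At Gm51871 the window stood at 84.7%, 86.8% and 86.8% in controls and at 43.8%, 25% and 60.6% in KO. KO samples thus lay close together at Gm39217 and far apart at Gm51871, with all of them under all controls at each of the 4 promoters.

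Over all depleted windows, the median level was 89.3%, 88.3% and 89.5% in controls 1 to 3, and 53.9% in KO1, 48.4% in KO2 and 43.9% in KO3. At the other highly methylated windows the medians were 91.5%, 91.5% and 91.6% in controls and 69.5%, 64.0% and 70.5% in KO. KO3 was thus the sample with the lowest median at depleted windows and the one with the highest median elsewhere. The ratio of KO mean to control mean ran from 0.297 to 0.60 with a median of 0.565, against a median of 0.747 at the others. Most depleted windows sat near the limit, with a lower quartile of 0.530 and an upper quartile of 0.586. Every KO sample lay under every control at 1141 of 1151 depleted windows, and the same held at 87.1% of the other windows.

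The KO samples were not evenly low within the set. Their own levels chose the windows, and KO3 had the fewest calls. The part of depth in this pattern was not tested. KO1 was at or under 0.60 of the control mean at 507 depleted windows, KO2 at 765 and KO3 at 898. All 3 KO samples were at or under it at 157 windows, 2 of them at 705 and 1 of them at 289. KO3 was the lowest KO sample at 618 depleted windows (53.7%), against 26.5% of the others, and KO2 at 358 (31.1%), against 51.3%. The median SD between the 3 KO levels was 11.2 points at depleted windows and 8.17 points at the others. The histograms of each KO sample relative to the control mean show this spread.

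**Figure D1:**
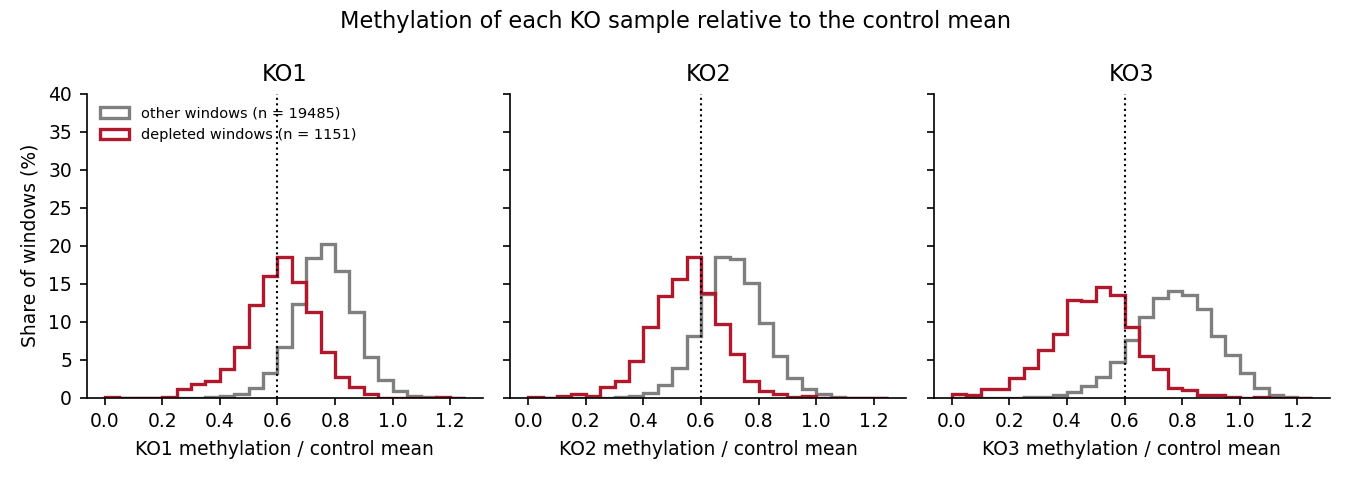
Distribution of the methylation of KO1, KO2 and KO3 divided by the control mean (x axis) over 1151 depleted and 19485 other highly methylated windows, as a share of windows in percent (y axis, bins of 0.05, values past the axis in the last bin), with the limit of 0.60 dotted. The depleted windows lie lowest in KO3, with a median of 0.50, then KO2 at 0.554 and KO1 at 0.616, and the other windows have medians of 0.779, 0.707 and 0.767 in the same order.

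The share of windows that were depleted fell with depth. It was 9.97% of windows with 30 to 49 calls in their shallowest P0 sample, 5.85% at 50 to 99 calls, 2.59% from 100 to under 200 calls and 0.895% (12 of 1341 windows) at 200 or more. The median ratio over all windows of these classes barely moved, from 0.743 to 0.749, while the lowest 5% of ratios ended at 0.553 in the shallowest class and at 0.647 in the deepest. The share low in every KO sample fell likewise, from 1.39% to 0.224%. Depleted windows had a median of 56 calls in their shallowest P0 sample, against 77 at the others. For a level of 50% at 56 calls, the 95% Wilson interval is 37.3% to 62.7%. Such intervals cover counting error only, and calls that share a read are not independent.

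Windows with few positions were also over-represented. The depleted share was 7.90% at 3 positions, 5.01% at 4, 2.66% at 5 to 7 and 1.14% at 8 or more, and 65.1% of depleted windows had 3 positions, against 44.8% of the others. Controls a little under full methylation were more common too. The share was 9.41% where the control mean was 80% to 85% and 2.99% at 95% or more. By chromosome it varied little, from 4.37% on chromosome 10 to 6.43% on chromosome 19. With at least 100 calls in every P0 sample, 150 depleted windows remained of 6670. Their medians were 85.9% in controls and 48.8% in KO, against 88.5% and 49.2% in the whole set. The same rule chose both sets and keeps these medians close.

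**Figure D2:**
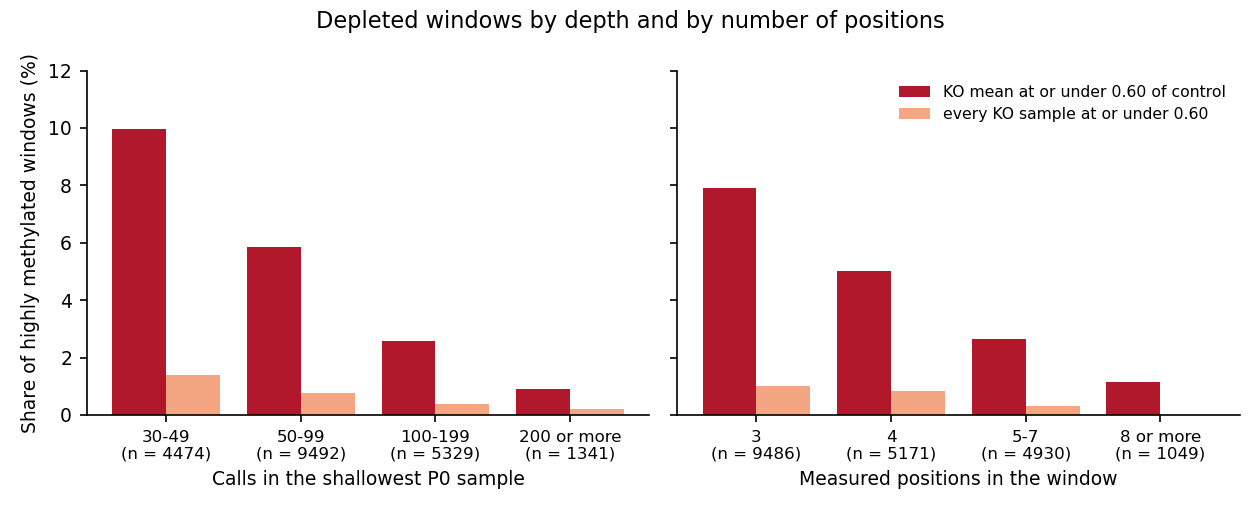
Share of highly methylated windows that met the rule (dark bars) or were at or under 0.60 in every KO sample (light bars), in percent, by the calls in the shallowest P0 sample and by the number of measured positions. Dark bars fall from 9.97% to 0.895% with calls and from 7.90% to 1.14% with positions, and n under each class is its number of windows.

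Each KO sample was then read at windows chosen without it. The control mean remains part of both the choice and the ratio, so only the level of the unused KO sample had no part in the choice. Whether the KO samples came from separate animals is not stated. With KO1 not used, the other KO samples chose 2136 windows at a median ratio of 0.555, and KO1 stood there at a median of 0.714, against 0.766 at all other highly methylated windows. With KO2 not used there were 1298 windows, where KO2 stood at 0.649 against 0.704 elsewhere. With KO3 not used there were 1489 windows, where KO3 stood at 0.705 against 0.773. In each case the sample that had no part in the choice was lower at the chosen windows than elsewhere, by 0.05 to 0.07. Its median lay nearer to that of other windows than to the level that had chosen the windows. Control means were lower at the chosen windows too, at medians of 89.2%, 88.8% and 88.8% against 91.4%, 91.3% and 91.4% elsewhere. The part of this in the contrast was not tested.

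The unused sample was itself at or under 0.60 at 17.5% of the chosen windows for KO1, against 6.53% of windows not chosen. For KO2 the shares were 35.7% and 16.5%, and for KO3 28.4% and 13.1%. With at least 100 calls they were 14.2% and 2.90% for KO1, 36.6% and 10.7% for KO2, and 27.3% and 7.78% for KO3. Windows with a low mean in the choosing samples were thus more often under the limit in the unused sample than other windows were, and at most of them the unused sample was not under it.

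**Figure D3:**
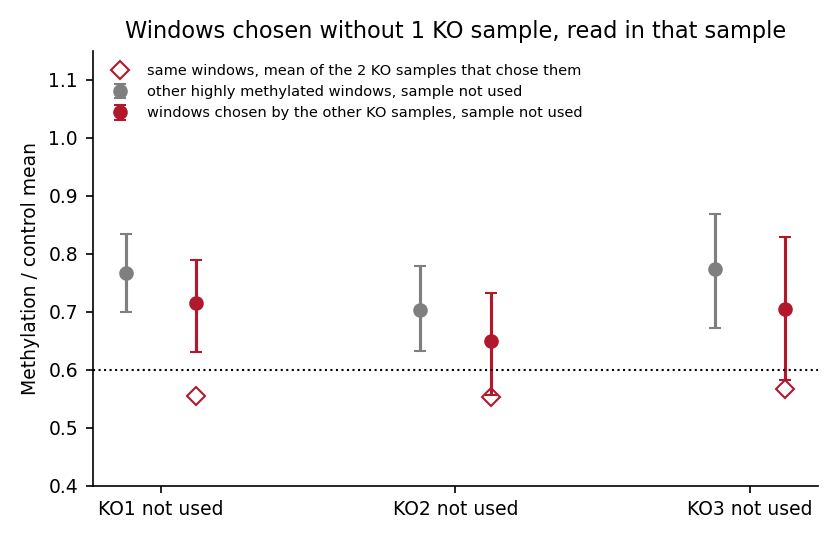
Median (dot) and quartiles (bars) of the methylation of the unused KO sample divided by the control mean, at windows chosen by the other KO samples (red) and at other highly methylated windows (grey), with the median of the choosing samples as open diamonds and the limit of 0.60 dotted. The red dots, at 0.714, 0.649 and 0.705, lie under the grey dots at 0.766, 0.704 and 0.773 and above the diamonds at 0.555, 0.553 and 0.566.

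The lowest ratio was at chr4:139053001-139054000 inside Tmco4, where 7 positions gave 97.3%, 94.4% and 94.3% in controls and 32.7%, 1.32% and 51.1% in KO1 to KO3. The value in KO2 rests on 76 calls (95% Wilson interval 0.233% to 7.08%). Next came chr9:69811001-69812000 inside B230323A14Rik, with 23.4%, 18.9% and 34.1% in KO against 87.8%, 85.4% and 68.1% in controls. The KO samples were far apart at Tmco4, whose ratio of 0.297 was 0.178 without KO3 and 0.439 without KO2, and closer together at B230323A14Rik. At chr5:75052001-75053000, outside genes and 7360 bases from the start site of Chic2, KO stood at 23.9%, 36.3% and 17.5% and controls at 81.4%, 83.1% and 76.4%. At chr7:79711001-79712000 inside Kif7, a kinesin-like regulator of Hedgehog signalling, KO stood at 32.4%, 53.5% and 0%. The last was 0 of 39 calls, which allows a level of up to 7.69%. The ratio of 0.323 there was 0.183 without KO2, the highest KO sample, and rose without KO3, the lowest.

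In all, 6 windows were selected for a low level in their highest KO sample relative to the controls. Besides those at B230323A14Rik and near Chic2, they included chr10:45160001-45161000 inside Prep, a prolyl endopeptidase, where KO stood at 27.7%, 41.9% and 22.4% and controls at 94.7%, 83.8% and 92.1%. They also included chr15:36680001-36681000, with 36.2%, 33.1% and 33.3% in KO and 90.7%, 83.3% and 86.6% in controls, and chr6:44195001-44196000, with 43.2%, 35.2% and 43.9% in KO and 100%, 100% and 95.1% in controls. The remaining window lies on chromosome 18 and is not described here. That all KO samples were low in them follows from this selection. Among them the KO samples lay closest together at the chromosome 15 window, at 34.2% ± 1.71 (SD, n = 3).

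Other windows met the rule through 1 or 2 KO samples. At chr2:160892001-160893000 inside Lpin3, a lipid phosphatase, KO1 had 0 of 30 calls methylated, which allows up to 10%, KO2 stood at 93.0% and KO3 at 25%, against 100%, 100% and 93.2% in controls. At chr10:75737001-75738000 inside Cabin1, an inhibitor of calcineurin, KO3 had 0 of 32 calls methylated, which allows up to 9.38%, and KO1 and KO2 stood at 65.6% and 76.3%. At chr15:3071001-3072000 KO1 stood at 95.7%, above all controls, KO2 at 35.6% and KO3 at 10.3%. Without 1 KO sample the ratio at Lpin3 (0.402) was 0.128 to 0.604, that at Cabin1 (0.526) up to 0.789 and that at chr15:3071001-3072000 (0.576) 0.279 to 0.801. These were the windows with the widest range between KO samples, together with chr1:130920001-130921000 near Il20 at 87.3%, 61.0% and 8.33%, whose ratio of 0.541 was 0.359 without KO1 and 0.761 without KO3, and in each of them 1 KO sample was close to the controls or nearer to them than to the lowest KO sample.

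The windows with the most calls in their shallowest P0 sample were on chromosomes 14, 1 and 2. At chr14:19418001-19419000, outside genes, 6 positions with 631 to 2339 calls per sample stood at 93.0%, 94.3% and 93.8% in controls and at 61.7%, 41.0% and 44.9% in KO. The nearby chr14:19415001-19416000 had 403, 526 and 367 calls in controls and 3828, 4438 and 3769 in KO, and the part of that difference in its levels was not tested. It stood at 62.1%, 39.0% and 39.8% in KO and at 88.6%, 91.1% and 88.6% in controls. KO1 was the highest KO sample at both, and the same was true of chr1:47371001-47372000 (65.4%, 50.7% and 46.6%) and of chr2:77447001-77448000 inside the zinc finger gene Zfp385b (71.9%, 59.3% and 38.7%). The 2 chromosome 14 windows had ratios of 0.525, under the median of depleted windows, and the other 2 stood near the limit at 0.597 and 0.599. The latter went over the limit, to 0.639 and 0.692, when KO3 was left out.

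Just inside the limit stood windows at Hivep2, Rlbp1 and chr3:15129001-15130000, with KO means of 52.2%, 54.6% and 50.5%. Just outside it stood chr14:121088001-121089000 inside Farp1, chr6:26946001-26947000 and chr8:10963001-10964000, with KO means of 56.8%, 58.1% and 50.3%. Rounded to 3 decimals, all 6 ratios equal 0.60, so these windows differ in membership and hardly in level.

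**Figure D4:**
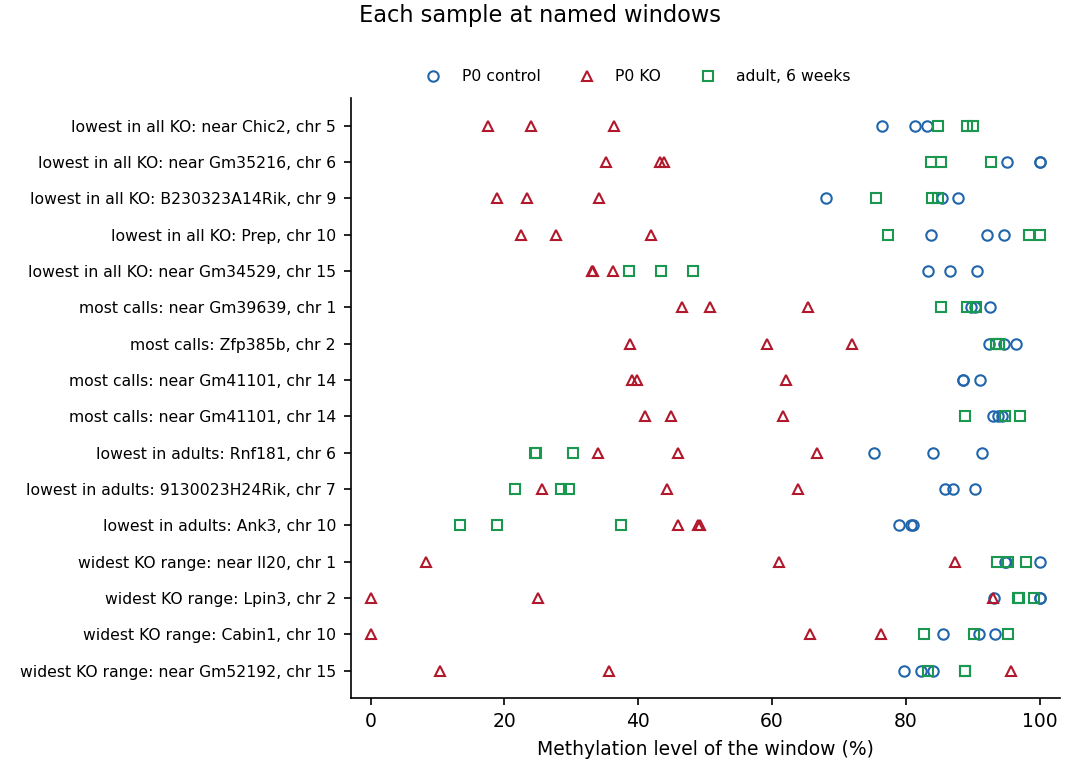
Methylation level in percent (x axis) of each P0 control (circles), P0 KO (triangles) and adult (squares) sample at 16 named depleted windows, labelled by the gene they lie in or the nearest start site and by what selected them, without adults for the upper chromosome 14 window. The KO triangles lie lowest at the windows selected for that and run from 0% to 93.0% at Lpin3, and the adult squares fall under most KO triangles at Rnf181, 9130023H24Rik and Ank3.

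Depleted windows were scattered singly along the chromosomes. The median distance between consecutive depleted windows was 1049000 bases. In 9 cases the next depleted window lay within 10000 bases, and 2 runs of 2 windows were adjacent or had 1 window between them. One was the adjacent pair at chr4:140856001-140858000, 10223 bases from the start site of Padi1, with 50.7%, 58.9% and 40.3% and then 49.5%, 35.2% and 58.6% in KO1 to KO3. The other was in Gng7, a G protein subunit, at chr10:80954001-80955000 and chr10:80956001-80957000. The lowest sample of the first Padi1 window, KO3, was the highest of its neighbour. At 57 highly methylated windows directly beside a depleted one, the median ratio was 0.741, against 0.747 at the others, so the neighbours stood near the level of other windows. The measured positions of a depleted window spanned a median of 100 bases, against 113 bases at the others.

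Their location relative to genes was near that of the background. Of the depleted windows, 64.8% overlapped a RefSeq gene and 56.1% a protein-coding gene, against 65.2% and 56.4% of the others. Gene bounds were used and exons and introns were not separated. The median distance to a RefSeq start site was 25898 bases, against 23731 bases. A start site lay within 1000 bases of 44 depleted windows (3.96%), against 4.13% of the others, with chromosome 18, which held 41 depleted windows, not used here. Among the 150 windows of at least 100 calls, 56.0% overlapped a gene, against 64.8% of other windows of that depth.

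The adult samples were not used to choose the windows. In 1054 depleted windows the same positions also held 10 or more calls in all 3 adults, and there the median level was 87.6%, 86.4% and 86.5% in adults 1 to 3. The adult mean had a median of 86.7%, against 90.9% at the other windows. Relative to the control mean, which also helped choose the windows, so that no test was made, adults stood lower by a median of 2.02 points (-2.02), against -0.645 points at the others. At most depleted windows, adult kidney was thus as highly methylated as the P0 controls to within a few points.

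A minority of depleted windows had low levels in adults. Adults were 10 or more points under the controls at 141 windows (13.4%), against 6.72% of the others, and every adult lay under every control at 208 (19.7%), against 14.6%. Every adult lay above every control at 41 (3.89%), against 6.31%. The adult mean was under 50% at 16 depleted windows (1.52%), against 0.534% of the others. Among windows of at least 100 calls the first of these contrasts was smaller and the second turned. Adults were 10 or more points lower at 7.75% of depleted windows against 5.83% of others, and every adult lay under every control at 16.2% against 17.2%. Adults 20 or more points lower did not become rarer at that depth. They were found at 4.93% of depleted windows (7 of 142) against 1.75% of others, and at 4.84% against 2.04% at all depths. Within each class of control mean the median difference was more negative at depleted windows, at -1.42 against -0.186 points for controls of 80% to 85% and at -3.03 against -1.07 points for controls of 95% or more.

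**Figure D5:**
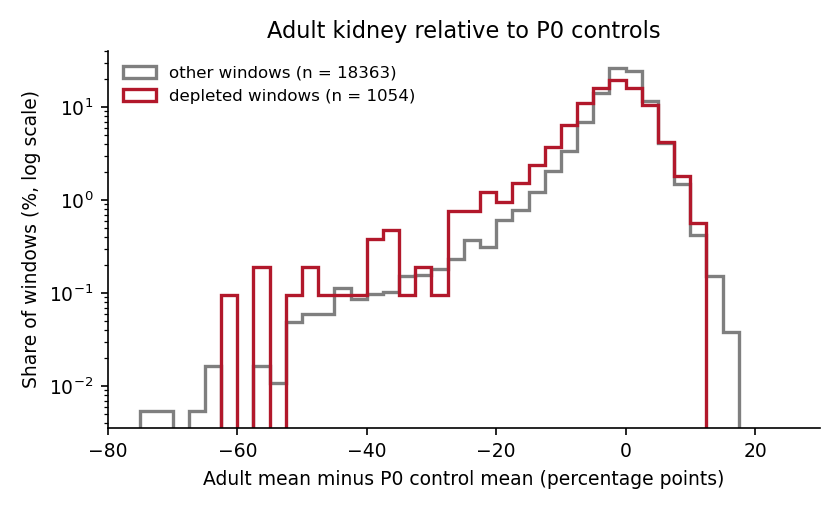
Adult mean minus P0 control mean in percentage points (x axis, bins of 2.5) at 1054 depleted and 18363 other highly methylated windows, as a share of windows in percent on a log scale (y axis). Both distributions peak near 0, with medians of -2.02 and -0.645 points, and the depleted windows have the heavier tail of low adult levels.

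The lowest adult mean was at chr10:69945001-69946000 inside Ank3, which encodes the membrane adaptor ankyrin G. Adults stood there at 13.3%, 18.9% and 37.4%, KO at 49%, 46.0% and 49.3%, and controls at 81.0%, 80.7% and 78.9%. The adults lay under all KO samples, which in turn lay under all controls. At chr7:128236001-128237000, inside 9130023H24Rik and within 1000 bases of an annotated end of Armc5, adults stood at 21.5%, 29.6% and 28.5% and KO at 25.6%, 44.3% and 63.9%. At chr15:36680001-36681000, the tight window described above, adults stood at 48.1%, 43.4% and 38.6%, a little above its KO samples. Adults differed most among themselves at chr2:173117001-173118000 in Ctcfl, the germline relative of Ctcf, at 93.3%, 35.8% and 70.7%, and at a window in Hnf4a given below.

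RNA from P0 kidneys was used to ask whether genes at depleted windows differed in expression. Of 18132 genes tested with edgeR, 6.36% were higher and 8.23% lower in KO at an adjusted p under 0.05. A gene was linked when a depleted window overlapped its bounds or lay within 1000 bases of them. Of 810 linked RefSeq genes, 702 were matched to the counts and 604 were tested, of which 39 (6.46%) were higher and 60 (9.93%) lower. Genes linked to other highly methylated windows were higher in 5.46% and lower in 9.23% of 5863 cases. The shares at depleted windows were thus near the background in both directions, and the median log2 fold change was -0.06, against -0.00 over all genes tested. Without RNA control 3 they were 83 (13.7%) and 107 (17.6%) of 608, where all genes gave 13.6% and 13.8%.

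Where the depleted window lay within 1000 bases of a start site, or of an annotated end where the strand was not known, 39 of 64 matched genes were tested, and 2 (5.13%) were higher and 3 (7.69%) lower. Of 615 genes with another highly methylated window so placed, 10.2% were higher and 7.48% lower. Fkbp6, a germ cell gene needed for meiosis, had 0, 0 and 0 counts in controls and 75, 83 and 86 in KO. With 3 counts allowed over the controls together, it was at least 94.3-fold higher (edgeR adjusted p 0.000493). Its window at chr5:135351001-135352000, 957 bases from its start site, stood at 95.9%, 94.9% and 95.2% in controls and at 53.3%, 52.9% and 47.1% in KO, so the methylation of KO samples was even. Adults stood there at 65.6%, 90.4% and 78.3%. Trim50, with an annotated end in the same window, had 1, 0 and 2 counts in controls and 0, 1 and 0 in KO. Rlbp1, a retinoid-binding protein of the eye, had 9, 16 and 14 counts in controls and 46, 45 and 39 in KO (log2 fold change 1.90, SE 0.34, edgeR adjusted p 0.00774). It falls outside the naming rule because of its low level and is named since it completes the count. Its window, 27 bases from the start site at chr7:79386001-79387000, stood at 69.2%, 52.2% and 42.4% in KO and 84.7%, 90.6% and 97.8% in controls.

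The 3 lower genes of this kind were Pdk2, Rnf181 and Pcdh12. Pdk2, a kinase that restrains pyruvate dehydrogenase, had 3795, 2329 and 4927 counts in controls and 1372, 1620 and 1295 in KO (log2 fold change -1.16, SE 0.21, edgeR adjusted p 0.00737). Its window, 875 bases from the start site, stood at 43.9%, 48.2% and 48.6% in KO, 91.2%, 85.4% and 84.3% in controls, and 16.7%, 43.8% and 49.1% in adults. Here too the adults were as low as or lower than the KO samples, apart from adult 3. Rnf181, a ubiquitin ligase, had 3420, 2487 and 4442 counts in controls and 1575, 1747 and 1438 in KO (log2 fold change -0.92, SE 0.16, edgeR adjusted p 0.00628). Its window, 432 bases from the start site at chr6:72361001-72362000, stood at 66.7%, 46.0% and 34.0% in KO, 75.2%, 84.0% and 91.4% in controls, and 24.5%, 24.7% and 30.3% in adults, lower in every adult than in every other sample. Pcdh12, a cadherin of endothelial cells, has its window on chromosome 18 at an annotated end, and the distance to its start site was not known here. It fell by 0.46 on the log2 scale (SE 0.12, edgeR adjusted p 0.0413) and lost its call under 8 of the alternatives. Of 6 endothelial markers 4 were lower, with a summed level of 610 to 873 CPM in controls and 396 to 494 CPM in KO and no marker at 0, and their part in this result was not tested.

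Further linked genes that rose had no depleted window within 1000 bases of their start site or, where that was not known, of either annotated end. Clvs1, which acts in vesicle transport to lysosomes, had 0, 0 and 1 counts in controls and 164, 89 and 145 in KO, a ratio of 461 (95% counting interval 82.3 to 18268.9, edgeR adjusted p 0.000197). The testis calpain Capn11 rose by 4.56 on the log2 scale and M1ap, which acts in meiosis, by 3.46. Ikzf3, a lymphocyte transcription factor, rose by 2.18 and held 2 depleted windows. Grp, Oit1, Upk3bl, Psd2, Dgki (a diacylglycerol kinase), Dnah5 (a dynein of motile cilia) and Ntng1 (an axon guidance protein) rose by 2.07 to 1.36. Of these, Grp, Oit1, Upk3bl, Dgki and Dnah5 lost their calls when a KO sample was left out.

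Among linked genes that fell were Cubn and Hnf4a, the 2 of 8 listed proximal tubule markers with a depleted window. Over all 18132 genes tested in RNA, 604 were linked to a depleted window, and gene length was not taken into account. Cubn, the endocytic receptor cubilin, had 5779, 4046 and 12002 counts in controls and 668, 611 and 652 in KO (log2 fold change -3.27, SE 0.33, edgeR adjusted p 0.000606). Its window at chr2:13445001-13446000, 45876 bases from the start site, stood at 93.5%, 83.7% and 88.6% in controls, 58.1%, 43.1% and 56.9% in KO, and 88.6%, 90.1% and 85.3% in adults. Cubn was thus lower in KO beside a window that is highly methylated in adult kidney. Hnf4a, a transcription factor of the proximal tubule, had 5353, 3440 and 9202 counts in controls and 1470, 1756 and 1221 in KO (log2 fold change -1.81, SE 0.27, edgeR adjusted p 0.00353). Its window at chr2:163551001-163552000, 3846 bases from the nearest Hnf4a start site, stood at 86.9%, 86.0% and 71.7% in controls, 54.2%, 44.4% and 47.7% in KO, and 10.3%, 53.8% and 39.2% in adults. All 8 proximal tubule markers were lower in KO, with a summed level of 1936 to 4176 CPM in controls and 395 to 466 CPM in KO and none at 0 in all samples, and their part in these results was not tested.

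Other falls were those of Dmgdh, a mitochondrial enzyme of choline breakdown (-3.62), the secreted glutathione peroxidase Gpx3 (-3.36), the homeobox gene Emx1 (-2.62), the kinase Nuak2 (-2.51), Ajap1 with 2 depleted windows (-2.34), the proline-pathway enzyme Aldh4a1 (-1.75), Plekhd1 (-1.67), Crb2, a polarity protein of podocytes (-1.61), Myo15b (-1.59) and Ildr2 (-1.54), all on the log2 scale. Control 3 was the highest control for several of them, most of all for Gpx3 and Nuak2. It was also the highest for Plekhd1, at 6.73, 4.17 and 13.3 CPM in controls, and for Cubn and Hnf4a above. Gpx3 had 18953, 12270 and 103298 counts in controls and stood at -1.99 without control 3, and Nuak2 had 433, 324 and 1629 and stood at -1.58. Gpx3, Nuak2 and Plekhd1 lost their calls when any KO sample was left out. The windows at Gpx3 and Nuak2 were low in adults as well, at 54.7%, 55.2% and 55.7% and at 38.5%, 37.1% and 31.3%. All 6 podocyte markers were lower in KO too, at 759 to 1069 CPM summed in controls and 283 to 362 CPM in KO with none at 0 in all samples, and their part in the result for Crb2 was not tested.

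Most genes of the methylation machinery did not pass the RNA test. Of 32 listed genes 30 were tested, of which Cxxc4 was higher (log2 fold change 0.84, edgeR adjusted p 0.0323) and Dnmt1 and Gadd45a lower (Gadd45a -0.73, edgeR adjusted p 0.0456). The median of the list was 0.09. Uhrf1, which brings Dnmt1 to replicated DNA, stood at 0.31 (edgeR adjusted p 0.0806). Depleted windows lay at 4 of these genes, the de novo methyltransferase Dnmt3a (0.06), Uhrf2 (0.31), the demethylase Tet3 (-0.14) and the CpG-binding Kdm2b (0.38). None of the 4 passed the test, with edgeR adjusted p from 0.0541 to 0.840. Over all 18132 genes tested in RNA, 604 were linked to a depleted window. Gene length and the number of measured windows per gene were not taken into account, so the 4 are not a result about this list. The window at Dnmt3a stood at 53.2%, 57.0% and 42.3% in KO against 91.1%, 86.7% and 77.6% in controls.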

How the data were processed

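Kidney DNA of 9 samples was measured by RRBS and kidney mRNA of 6 samples by RNA-seq. Per the submitters' processing notes, Trim Galore and Bismark, STAR 2.4.1d and HTSeq 0.6.1 were used, with builds mm10 and GRCm38, and which filters were applied is not given in the sources used here. The deposited RRBS files give a methylation percent and the counts of methylated and unmethylated calls per position, and the percent is 100 times the methylated share of those counts. The deposited RNA files give raw counts per gene, and 5 lines of unassigned reads (22.9% to 35.8%) were left out. All 27582 measured positions inside RefSeq promoters fell on a CpG of GRCm38.p6.

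Calls were summed per window and sample with Python 3.11.15, numpy 2.4.6 and pandas 2.3.3. Levels are given per sample or as mean ± SD. Genes came from RefSeq gene bounds of GRCm38.p6, of which 32124 of 47038 autosomal entries were matched to counts by symbol or synonym. For RNA, edgeR 4.0.16 under R 4.3.3 was run on the gene counts with its quasi-likelihood test (TMM scaling, filterByExpr, Benjamini-Hochberg adjustment over 18132 genes at 0.05), tested beforehand on simulated data. The SE of a log2 fold change is its size divided by the square root of the F statistic. CPM values use TMM scaling, and fold changes of genes with 0 or 1 control counts use library totals.

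Named genes were the 12 largest increases and 12 largest decreases among linked genes that passed the threshold, clone-named genes left out. They also had a mean log2 CPM of 0 or more and KO samples that all lay beyond all controls. Added to them were Dnmt1 and genes that passed with a window at a start site, or at an annotated end where the strand was not known. Named windows were the extremes by ratio, highest KO sample, KO range, depth, adult level and adult range, those nearest the limit, and the longest runs. The windows, gene lists and rules were chosen with earlier results of these data known. Alternatives varied the call and position minimums, the limits, the window grid, the averaging, the RNA scaling and filter, the link distance, a replicate block, DESeq2 1.42.0 and each replicate in turn. Window sequence outside promoters and start sites on chromosome 18 were not used here.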

Additional observations from a re-analysis of the deposited data

How the results depend on the processing

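The number of depleted windows, 1151 of 20636, was 2811 of 37683 with at least 5 calls per position and 243 of 6930 with at least 20. It was 143 with at least 5 positions, 135 at a ratio of at most 0.50, 2973 at 0.65, 157 with every KO sample at most 0.60 and 458 with a control mean of at least 90. An alternative chosen after seeing the data, at least 100 calls in the shallowest P0 sample, gave 150. Leaving out 1 RRBS sample gave 1266 to 2330 windows, with 2158 without KO1 and 2330 without KO3, of which 624 were among the 1151. Positions then needed enough calls only in the samples that remained, so positions and windows could be added. Position means (1236), a shifted grid (1149), leaving out the deepest positions (1148) and pooled calls (1087, of which 785 shared, also chosen after seeing the data) stayed within 1.5 times. The median adult level, 86.7%, was 85.8% with at least 5 positions, 87.6% at a ratio of 0.50 and at 0.65, 85.2% with every KO sample low, 91.7% with controls of at least 90, 85.1% at 100 calls or more, and 86.3% to 87.9% with 1 sample left out. The cause of these shifts was not tested.

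Over all genes, a filter of 10 counts in every sample gave 678 higher in KO, a 2-fold minimum left 795 lower, and leaving out 1 RNA sample gave 647 to 2512 higher and 701 to 2561 lower. Of linked genes, library size alone gave 38 lower, a 2-fold minimum 22 higher and 25 lower. Leaving out 1 RNA sample gave 17 to 83 linked genes higher and 26 to 107 lower. Counts over all genes shifted as well, so these counts are not a result about linked genes. Windows low in every KO sample gave 4 (4.88%) higher and 7 (8.54%) lower of 82 genes tested. Windows of at least 100 calls gave 7 (9.59%) and 6 (8.22%) of 73, against 6.36% and 8.23% of all genes tested. With the replicate number as a block, 25 linked genes were higher and 39 lower, and 798 and 1005 of all genes. Deviations from the group means correlated at -0.142 on average between control and KO samples of the same number. Between those of unlike number the average was 0.0697. Because each deviation is taken from its own group mean, these averages are tied to each other. With so few samples they cannot decide whether samples of the same number share more than that number. Of the fold changes of named genes under alternatives, 295 kept their call and 36, at 9 genes, lost it with the same direction. Of 29 named depleted windows, 17 had a ratio over 0.60 with some 1 sample left out, and at 5 the ratio moved by over 1.5 times. Leaving out 1 sample, at the same positions, always moves a group mean by less than the SD between its samples. That SD, which is wide at such windows, therefore cannot serve to judge these moves. Depth limits single values, as a level of 50% on 56 calls has a 95% interval of 37.3% to 62.7%.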
